A study of Mus musculus with 17 samples.

Results

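The cytosolic ribosomal protein genes, which encode the protein shell of the ribosomes that translate nuclear messenger RNA, were followed in the livers of 17 mice. Members were chosen by symbol, as the Rpl, Rps, Rplp, and Rpsa genes, without the Rps6k kinases and without pseudogenes. A member also had to have a liver signal well above background on 4 or more arrays. The rule used no difference between groups. Of 83 matching symbols, Rps4l was left out because RefSeq lists it as a pseudogene, and Rpl3l was left out because its signal was too dim. The remaining 81 genes stand among 19358 genes tested. They comprise 31 genes of the small subunit, 43 of the large subunit, the 3 stalk genes Rplp0, Rplp1, and Rplp2, and the 4 paralogs Rpl7l1, Rpl22l1, Rpl39l, and Rps27l.

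The study asked which hepatic genes respond when an ethanol binge follows high-fat feeding. Male mice, C57BL/6N by the sample labels and C57BL/6J by the study's methods, formed 4 groups. The chow group (4 mice) ate chow and received maltose by gavage, and the 1B group (4 mice) ate chow and received 1 gavage of ethanol at 5 g/kg. The HFD group (4 mice) ate a high-fat diet for 3 months and received maltose, and the HFD+1B group (5 mice) ate the same diet and received the ethanol gavage. Thus every mouse, controls included, was gavaged, and livers were taken 9 hours later. The age of the mice was not given in the sources used here. Each liver RNA (Cy5) was hybridized with a common reference RNA (Cy3) on an Agilent array of 60-base probes. A value below is the log2 ratio of liver to reference, 1 unit of which is a 2-fold difference, and a gene was called higher or lower where the adjusted p from limma was at most 0.05, whatever its fold change.

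A ribosome is built in the nucleolus from ribosomal RNA and a full set of ribosomal proteins in equal amounts, so the genes are transcribed at high levels in nearly every cell. Their messenger RNAs begin with a run of pyrimidines that ties their translation to nutrient signaling through mTOR. In hepatocytes, which secrete most plasma proteins, ribosomes take up a large share of the cell's RNA.

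All 12 hepatocyte markers tested were well above background on all 17 arrays, as the tissue label requires. The ribosomal protein probes were bright, with a median log2 Cy5 signal of 13.0 against 7.88 for all genes tested, and 80 of the 81 members were well above background on all arrays. Rpl39l was so on 8 arrays. Within groups the members varied little, with a median SD of 0.14 against 0.20 for all genes, from 0.05 for Rpl7a to 0.44 for Rpl22l1. In chow livers the mean ratio to the reference ranged from -0.62 for Rpl21 to 0.54 for Rpl22l1, with a median of 0.03. Chow 1 had values for 73 of the 81 members, since spots marked as outliers by the scanner software were left out, and the other arrays had 78 to 81. The median raw Cy5 signal of an array was 63 to 98 in HFD, below the 99 to 138 of chow. It was 90 to 158 in HFD+1B and 69 to 134 in 1B, which reached into the ranges of both chow and HFD. Array brightness thus moved in part with group, and its part in the results was not tested. Ribosomal proteins also have many processed pseudogenes, and signal shared with such near-identical copies could not be separated.

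The start sites of members that later results turn on are shown first, because the pyrimidine run is the feature by which this gene family is known. Each line gives the 10 bases before and the 20 bases from the annotated RefSeq start (mouse build GRCm38.p6), 5′ to 3′ on the gene's strand, with the longest run of at least 6 C or T that reaches within 5 bases of the start in capitals.
Rps27, chr3:90213629-90213658, minus strand: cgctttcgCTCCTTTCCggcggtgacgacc
Rps18, chr17:33955646-33955675, minus strand: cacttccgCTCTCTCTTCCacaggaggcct
Rpl27a, chr7:109519185-109519214, plus strand: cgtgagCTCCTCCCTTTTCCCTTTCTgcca
Rpl28, chr7:4792955-4792984, plus strand: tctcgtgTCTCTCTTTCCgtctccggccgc
Rpl12, chr2:32961702-32961731, plus strand: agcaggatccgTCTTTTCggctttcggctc
Rpsa, chr9:120127756-120127785, plus strand: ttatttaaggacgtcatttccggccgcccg
Rplp0, chr5:115559457-115559486, plus strand: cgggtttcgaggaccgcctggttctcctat
Rpl22l1, chr3:28805498-28805527, plus strand: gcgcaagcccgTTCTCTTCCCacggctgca
Of the 81 members, 61 had a start in the table, and 30 of these (49.2%) held such a run, against 5664 of 27025 (21%) of all genes in the table. The first base was C in 21 members (34.4%) and in 16.2% of all genes. Rps27, Rps18, Rpl27a, and Rpl28, all called lower in HFD+1B against chow, carry long runs over the start. Rpsa and Rplp0, called lower in the same comparison, have no run of this length there. Of the other members called lower in it that had a start in the table, Rps26 held a run, and Rpl35a, Rpl7l1, and Rps15 held none. A missing run says only that these letters are not in this window.

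With loess normalization the members as a family were lowest after the combined challenge. For each mouse, the median over members of the difference from the chow mean was -0.03 to 0.06 in chow and -0.03 to 0.08 in 1B. In HFD mice it was -0.19 to -0.02, and in HFD+1B mice -0.35 to -0.07, so every HFD+1B mouse lay below every chow and every 1B mouse, while HFD mice reached into the chow range. This order of the diet groups depended on the normalization: with arrays centred on the median instead of loess, the members' median relative to chow was -0.42 in HFD and -0.24 in HFD+1B, so HFD was then the lowest group. With loess, of the 81 members, 48 had their lowest group mean in HFD+1B and 23 in HFD, and 45 had their highest in 1B. The same order was seen in both subunits: the small subunit medians were -0.39 to -0.09 in HFD+1B against -0.04 to 0.05 in chow, and the large subunit medians -0.31 to -0.07 against -0.04 to 0.08. In bulk liver, fewer cells of a type and less RNA per cell cannot be told apart.

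**Figure D1:**
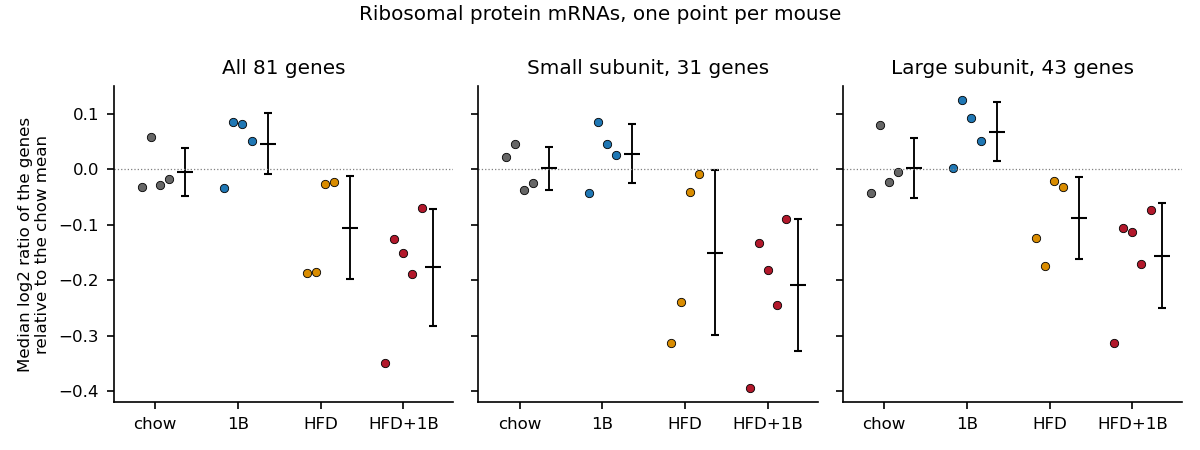
Each point is 1 mouse, plotted as the median over members of the log2 difference from the chow mean (vertical axis, log2 units) for all 81 members, the 31 small subunit genes, and the 43 large subunit genes, by group, with the mean and SD of the mice. All 5 HFD+1B mice lie between -0.35 and -0.07 for all members, below the chow mice at -0.03 to 0.06.

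In HFD+1B against chow, the comparison of the combined challenge with the control, no member was called higher and 14 were called lower. Among all genes tested, 8.90% were called higher and 7.40% lower in this comparison. The members' median difference was -0.18, against 0.00 for all genes, and 71 of 81 members lay below 0. They included Rps27, Rpsa, Rps18, Rps26, and Rps15 of the small subunit, Rpl27a, Rpl36, Rpl35a, Rpl28, and Rpl7 of the large subunit, the stalk gene Rplp0, and the paralog Rpl7l1. Without overlap of the groups, HFD+1B was lower for 23 members and higher for 1, against 7.47% and 8.17% of all genes. The differences were small, with a median size of 1.13-fold over the members, and none reached 2-fold.

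Rps27 encodes a zinc-binding protein of the small subunit and fell by the most in HFD+1B against chow. Its log2 ratios were 0.31, 0.35, 0.29, and 0.29 in the chow mice and -0.66, -0.14, -0.18, -0.35, and -0.49 in the HFD+1B mice. The 1B mice had -0.20, -0.26, -0.03, and -0.00, and the HFD mice -0.44, -0.09, -0.38, and 0.12. All 13 other mice thus lay below the 4 chow mice, which were close together. The difference from chow was -0.67 (SE 0.12, adjusted p = 0.000866) in HFD+1B, or 1.60-fold lower, and -0.51 (SE 0.13, adjusted p = 0.0184) in HFD. In 1B it was -0.43 and not called (adjusted p = 0.0734), so for this gene the chow group, rather than HFD+1B, stood apart.

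Rpsa, which encodes a small subunit protein that also serves as a laminin receptor, had log2 ratios of 0.24, 0.01, -0.12, and 0.01 in chow and -0.29, -0.31, -0.49, -0.19, and -0.82 in HFD+1B. The HFD mice had -0.31, -0.34, -0.17, and -0.23, also below every chow mouse, and the 1B mice had 0.40, -0.05, 0.23, and 0.13. The HFD+1B mean was 1.37-fold below chow (log2 difference -0.46, SE 0.12, adjusted p = 0.0153), and that of HFD differed by -0.30 and was not called (adjusted p = 0.149). For Rps18, a protein at the head of the small subunit, the ratios were 0.19, 0.28, 0.08, and 0.18 in chow and 0.15, 0.33, 0.30, and 0.12 in 1B. HFD mice had 0.03, -0.06, -0.06, and 0.12, and HFD+1B mice -0.28, -0.44, -0.13, -0.31, and -0.09. All HFD+1B mice thus lay below all others, and the difference from chow was -0.43 (SE 0.09, adjusted p = 0.00205). Further small subunit calls were Rps26 at -0.40 (adjusted p = 0.0287) and Rps15 at -0.31 (adjusted p = 0.0493).

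Of the large subunit, Rpl28 separated HFD+1B from all other groups. Its log2 ratios were -0.01, 0.21, 0.07, and 0.14 in chow, 0.07, 0.26, 0.22, and 0.11 in 1B, and 0.03, -0.10, -0.03, and 0.07 after the high-fat diet alone. HFD+1B mice had -0.32, -0.41, -0.36, -0.33, and -0.11, each below the lowest mouse of the other groups. The difference from chow was -0.41 (SE 0.08, adjusted p = 0.00207). Rpl27a had the largest difference of the large subunit, with 0.41, 0.07, and 0.08 in chow 2 to 4, -0.36 in chow 1, and -0.56, -0.84, -0.26, -0.40, and -0.32 in HFD+1B. Chow 1 lay within the HFD+1B range, and the SE was 0.15 for a difference of -0.53 (adjusted p = 0.02). Rpl36 was at 0.25, 0.21, 0.05, and 0.03 in chow and at -0.52, -0.29, -0.17, -0.44, and -0.12 in HFD+1B, without overlap (-0.44, SE 0.12, adjusted p = 0.0147). Rpl35a (-0.41, adjusted p = 0.00731) and Rpl7 (-0.28, adjusted p = 0.0135) were also called lower.

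The stalk recruits elongation factors to the ribosome, and 1 of its 3 genes was called. Rplp0, the scaffold of the stalk, had log2 ratios of 0.21, 0.15, 0.05, and 0.02 in chow and of -0.37, -0.35, -0.29, and 0.01 in the 4 HFD+1B mice with a value. The highest HFD+1B mouse lay just below the lowest chow mouse, and the difference was -0.36 (SE 0.11, adjusted p = 0.0301). With Cy5 alone it was 0.0725, and the call was lost without any 1 of chow 1 to 3 or HFD+1B 1 to 3. Rplp1 differed by -0.24 (adjusted p = 0.148) and Rplp2 by 0.07 (adjusted p = 0.802), and neither was called in any comparison. Of the paralogs, Rpl7l1, a nucleolar relative of Rpl7, was at -0.04, 0.23, 0.02, and 0.02 in chow and at -0.20, -0.07, -0.29, -0.39, and -0.35 in HFD+1B (-0.32, SE 0.10, adjusted p = 0.0349), a call lost under 13 of the 29 other settings, the slide block among them. Rpl39l and Rps27l, a p53 target related to Rps27, both differed by 0.06 and were not called.

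The calls in HFD+1B against chow depended on single chow mice and on the normalization. Without chow 2 the count fell from 14 to 8 and without chow 3 to 9, and leaving out chow 1 ended the call of Rpsa, whereas Rps27, Rps18, Rpl28, and Rpl36 remained called without any 1 mouse. With Cy5 alone 1 member was called lower, against 2.99% of all genes in that setting, and with the authors' ratios 4 were called, against 6.23%, so the members did not exceed the background in either. With median centring 6 were called, against 4.21% of all genes. The median over members stayed below 0 in every setting tried. Of the 14, 8 had further probes. For all 8 at least 1 further probe also lay below 0, and for 3 at least 1 was called lower. Within the 4 slides that held both groups, the members' median difference was -0.32 to -0.10.

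**Figure D2:**
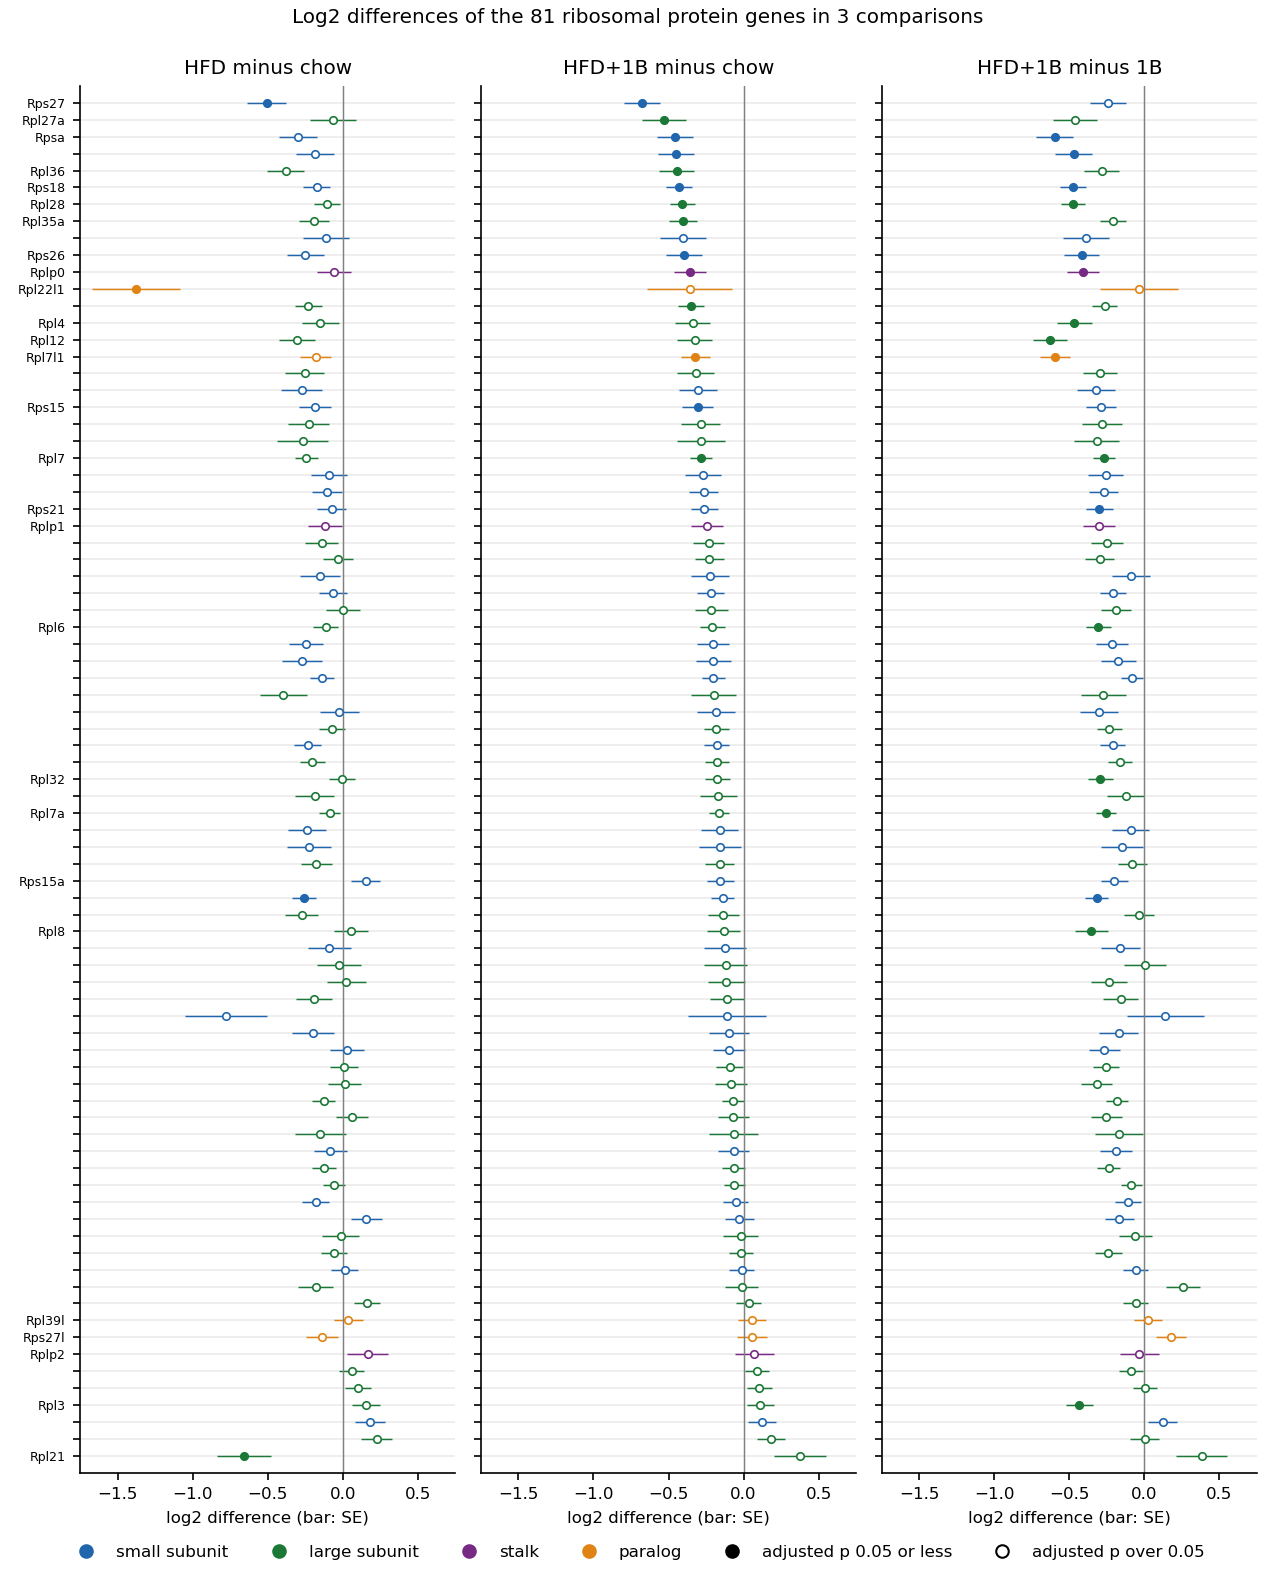
Each point is 1 member, with its log2 difference (horizontal axis, log2 units) and SE in HFD minus chow, HFD+1B minus chow, and HFD+1B minus 1B, colored by role, filled where the adjusted p is 0.05 or less, and labeled by gene for members described in the text. Most points lie left of 0 in all 3 panels, by less than 1 unit, with 4, 14, and 17 members called lower and none called higher.

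Against 1B, which compares the 2 ethanol groups across diets and shares the HFD+1B arrays with the comparison above, HFD+1B had 17 members called lower and none higher. Of all genes tested, 5.15% were called lower and 6.28% higher. The members' median difference was -0.24, with 72 of 81 below 0, and without overlap of the groups 27 members were lower and 1 higher, against 5.78% and 5.69% of all genes. Of the called genes, 6 belong to the small subunit (among them Rpsa, Rps18, Rps26, and Rps21) and 9 to the large subunit (Rpl12, Rpl28, Rpl4, Rpl3, Rpl8, Rpl6, Rpl32, Rpl7, and Rpl7a), with Rplp0 and Rpl7l1.

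Rpl12, which sits at the base of the stalk, had the largest difference from 1B. Its log2 ratios were 0.14, 0.34, 0.20, and 0.23 in 1B and -0.76, -0.44, -0.35, -0.18, and -0.28 in HFD+1B. The chow mice lay between, at -0.05, -0.09, -0.09, and -0.07, and the HFD mice were at -0.64, -0.50, -0.19, and -0.18. The 1B values were therefore above, and all HFD and HFD+1B values below, those of chow, without overlap. HFD+1B was 1.55-fold below 1B (log2 difference -0.63, SE 0.11, adjusted p = 0.0019), while its difference of -0.33 from chow was not called (adjusted p = 0.0659). Rpsa (-0.60, adjusted p = 0.00406), Rpl7l1 (-0.59, adjusted p = 0.000896), Rps18 (-0.47, adjusted p = 0.00191), and Rpl28 (-0.47, adjusted p = 0.00115) followed. The 1B mice had 0.47, 0.26, 0.33, and 0.26 for Rpl7l1, above all other mice.

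The smallest called differences from 1B were in abundant core proteins. Rpl7a was at 0.04, 0.14, 0.06, and 0.11 in 1B and at -0.25, -0.12, -0.15, -0.24, and -0.08 in HFD+1B, a difference of -0.25 (SE 0.07, adjusted p = 0.0198). Rpl32 differed by -0.29 (adjusted p = 0.0324). Without 1B 2 the count fell from 17 to 10. With median centring or with Cy5 alone 1 member was called lower, against 2.10% and 1.24% of all genes, so in both settings the members did not exceed the background. With the authors' ratios 6 were called, against 3.82% of all genes. Of the 17, 10 had further probes. For all 10 at least 1 further probe lay below 0, and for 6 at least 1 was called lower. Within the 4 slides shared by the groups, the members' median was -0.32 to -0.15.

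**Figure D3:**
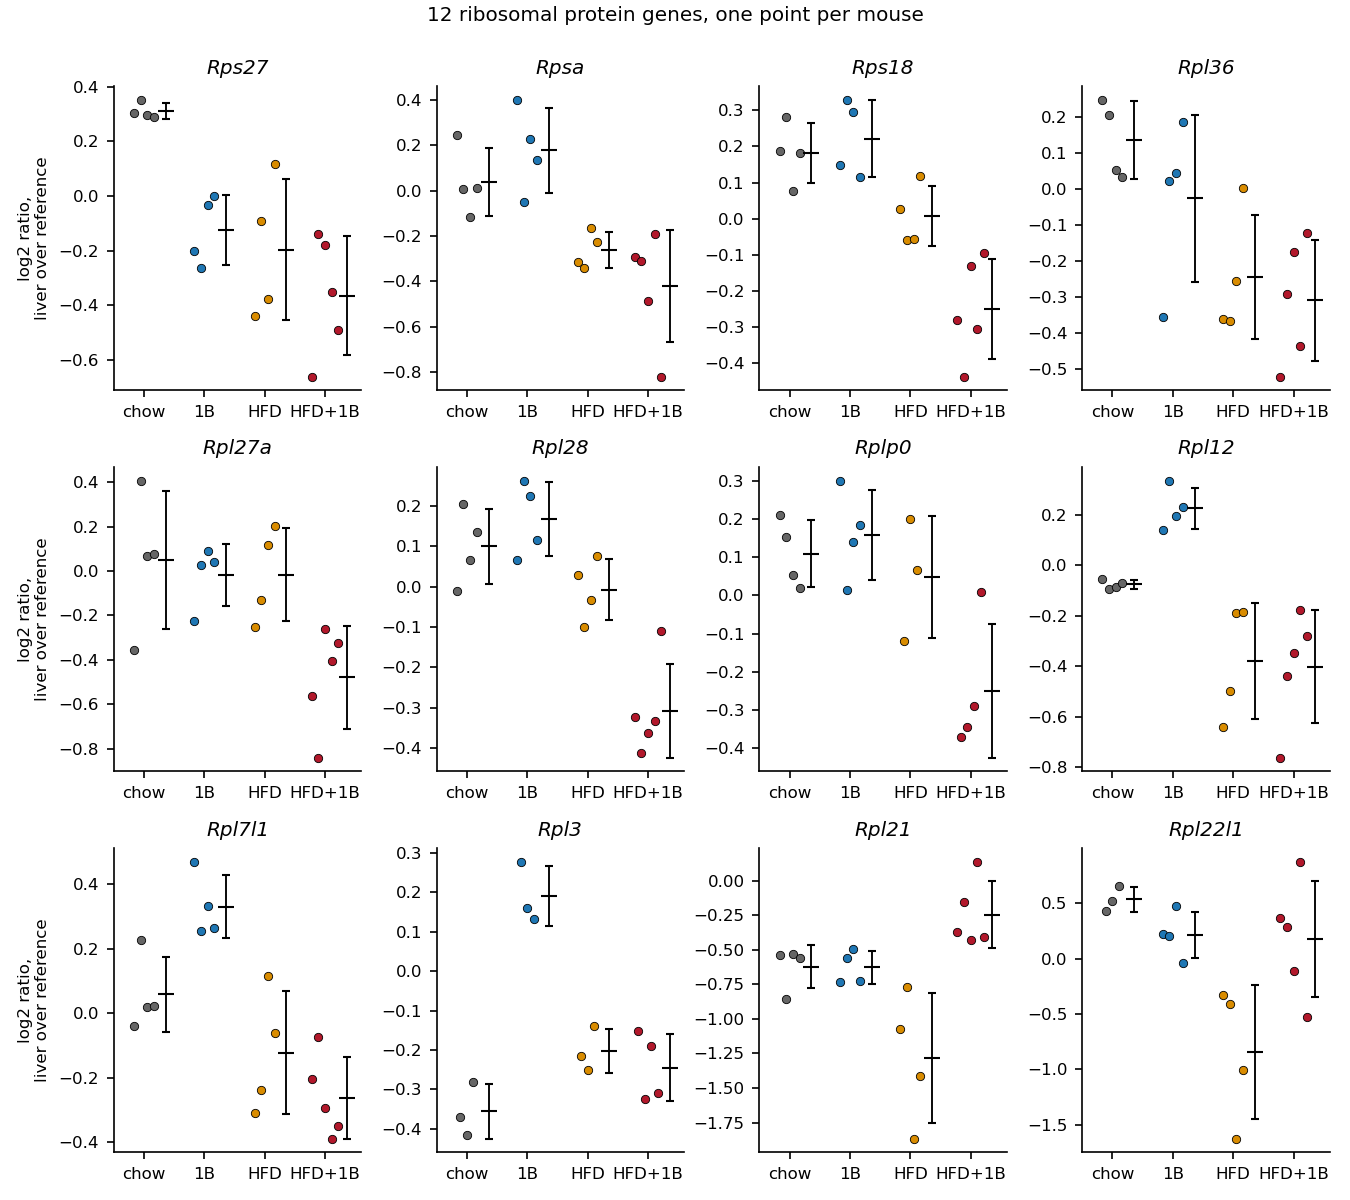
Log2 ratio of liver to reference (vertical axis, a separate scale for each gene) of 12 members in each mouse, by group, with the mean and SD in black. All HFD+1B mice lie below all others for Rps18 and Rpl28, the 4 chow mice lie highest for Rps27, 1B is highest for Rpl3, and the means of Rpl21 and Rpl22l1 are lowest in HFD.

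Diet alone gave few calls among the members. In HFD against chow, no member was called higher and 4 were called lower, among them Rpl22l1, Rpl21, and Rps27, with backgrounds of 4.50% higher and 6.47% lower over all genes, so the called share of the members (4.94%) was near the background. Nevertheless 63 of 81 lay below 0, with a median of -0.13. Without overlap of the groups, 14 were lower and 1 higher, against 10.3% and 9.01% of all genes. The median was -0.17 in the small subunit and -0.12 in the large subunit. With median centring, which moved the median of all genes by only -0.08, the members' median was -0.42 and 24 were called lower, against 8.98% of all genes in that setting. Without chow 1, chow 3, or chow 4 the count was 2, and without HFD 3 it was 1.

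Ethanol alone moved the family little. In 1B against chow, Rpl3 was called higher and no member lower, against backgrounds of 2.09% and 2.04%. Without overlap of the groups, 10 members were higher and 1 lower, against 6.16% and 5.81% of all genes. The members' median was 0.04 and turned to -0.10 with median centring. Rpl3, a large subunit protein that lines the approach to the peptidyl transferase center, was at -0.37, -0.42, and -0.28 in chow and at 0.28, 0.16, and 0.13 in 1B, 3 mice with a value in each. HFD mice were at -0.21, -0.25, and -0.14, and HFD+1B mice at -0.15, -0.33, -0.19, and -0.31. The 1B mice alone were above 0, and the difference from chow was 0.55 (SE 0.10, adjusted p = 0.00542), or 1.46-fold. The ethanol effect on Rpl3 differed between diets, with an interaction (the effect on HFD minus that on chow) of -0.59 (SE 0.13, adjusted p = 0.0264). The interaction was lost without chow 3, 1B 1, or HFD 4, each in turn, and with slide as a block.

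Adding ethanol to the high-fat diet gave calls both ways. In HFD+1B against HFD, Rpl21 and Rpl22l1 were called higher, and Rpl27a (-0.46, adjusted p = 0.0359), Rps15a (-0.31, adjusted p = 0.0243), Rpl28 (-0.30, adjusted p = 0.0165), and Rps18 (-0.26, adjusted p = 0.0468) lower. Over all genes, 11.0% were called higher and 8.39% lower. Without overlap of the groups, 1 member was higher and 3 were lower, against 8.30% and 7.00% of all genes. The members' median was -0.06 and became 0.18 with median centring, which moved the median of all genes to 0.14, so the direction of the family in this comparison depended on the normalization. No member was called lower with median centring or without HFD 4, and 1 was called without HFD 3, HFD+1B 1, or HFD+1B 2 and 2 without HFD+1B 4. For the interaction, 1 member was called higher (Rpl21) and 1 lower (Rpl3), against 2.66% and 1.72% of all genes.

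Only Rpl21 and Rpl22l1 were called lower in HFD against chow and higher in HFD+1B against HFD. Rpl21, a large subunit protein, had log2 ratios of -0.54, -0.85, -0.53, and -0.56 in chow and -0.73, -0.56, -0.49, and -0.73 in 1B. The HFD mice had -1.07, -0.77, -1.87, and -1.41, and the HFD+1B mice -0.37, -0.16, -0.43, 0.14, and -0.41. Of the HFD mice, 3 lay below all chow and 1B mice, and all HFD+1B mice lay above all others. The difference was -0.66 (SE 0.18, adjusted p = 0.0276) for HFD against chow and 1.03 (SE 0.17, adjusted p = 0.000655), or 2.05-fold higher, for HFD+1B against HFD. Its interaction was 1.04 (SE 0.25, adjusted p = 0.0269), a call lost without chow 1, chow 3, chow 4, 1B 1, or HFD 4. Rpl22l1, a paralog that can replace Rpl22 in the large subunit, was at 0.43, 0.52, and 0.65 in 3 chow mice, and the 1B mice had 0.22, 0.20, 0.47, and -0.04. The HFD mice had -0.33, -0.41, -1.62, and -1.01, and the HFD+1B mice 0.37, 0.28, -0.11, 0.87, and -0.53. All 4 HFD mice lay below all chow and 1B mice. HFD was 2.60-fold below chow (log2 difference -1.38, SE 0.30, adjusted p = 0.0077) and HFD+1B was 2.03-fold above HFD (1.02, SE 0.26, adjusted p = 0.0123).

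The second probes of both genes did not show this pattern, so the probes are given here. The capitals mark runs of at least 4 G or C, and each line shows the first 30 of 60 bases of a probe, 5′ to 3′.
Rpl21, brighter probe: ggcaGCCCtCGGGCCttgtaagaGCGCGCa
Rpl21, dimmer probe: gagggttctctagaagtactacctgtctta
Rpl22l1, brighter probe: gagaaGGCGGtgggaagagagtCGGCCtgg
Rpl22l1, dimmer probe: gaacttcgttatttccagattagtcaagat
Over the whole probe, G and C made up 75% and 63.3% of the brighter probes of Rpl21 and Rpl22l1, and 41.7% and 38.3% of the dimmer ones. On the dimmer Rpl21 probe, well above background on 6 arrays, HFD differed from chow by 0.06 (adjusted p = 0.76) and HFD+1B from HFD by -0.07. The dimmer Rpl22l1 probe, well above background on all 17 arrays, gave 0.02 (adjusted p = 0.97) and -0.23 (adjusted p = 0.4). They are the only 2 members whose probe reached 60% GC. Among all 213 genes with such a probe, the median difference of HFD from chow was -0.28, with 29.1% called lower, against 0.02 and 3.19% for the 5588 genes whose probes were under 40% GC. In HFD+1B against HFD the median of the 213 genes was 0.42, with 47.4% called higher. Probe GC content thus moved with both differences, and its part in the results of Rpl21 and Rpl22l1 was not tested. In HFD+1B against chow the 213 genes had a median of 0.09, with 3.76% called lower. Across the 81 members the difference correlated with GC at r = -0.292 in HFD against chow, 0.359 in HFD+1B against HFD, 0.0978 in HFD+1B against chow, and 0.114 in HFD+1B against 1B, a description over probes of the same arrays.

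**Figure D4:**
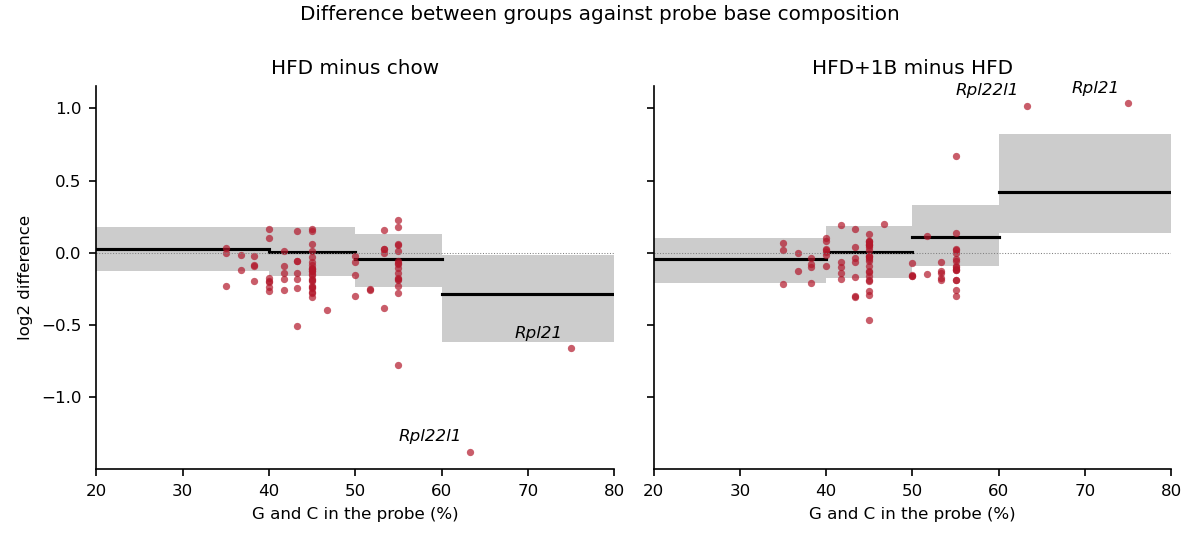
Log2 difference (vertical axis) against the GC percentage of each gene's probe (horizontal axis) for HFD minus chow and HFD+1B minus HFD. The line and the grey band are the median and the middle 50% of all genes per GC band, and red points are the 81 members. Rpl21 at 75% GC and Rpl22l1 at 63.3% lie low in the first panel and high in the second, as the median of all genes does at 60% or more.

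Ribosomal RNA was read by 5 probes, for the mature 18S (Rn18s, 2 probes) and 28S (Rn28s1) molecules and for the 45S precursor (Rn45s, 2 probes). They are printed in full because they cover different stretches of the transcript, share at most 9 bases in a row, and differ in G and C content (capitals as above).
Rn18s probe 1: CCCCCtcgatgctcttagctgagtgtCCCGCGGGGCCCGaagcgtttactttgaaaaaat
Rn18s probe 2: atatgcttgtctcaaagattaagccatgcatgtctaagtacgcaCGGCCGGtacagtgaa
Rn28s1: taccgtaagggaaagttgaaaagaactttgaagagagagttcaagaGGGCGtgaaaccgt
Rn45s probe 1: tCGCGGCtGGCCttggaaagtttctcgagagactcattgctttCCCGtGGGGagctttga
Rn45s probe 2: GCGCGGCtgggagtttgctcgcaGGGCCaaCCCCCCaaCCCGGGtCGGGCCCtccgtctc
Unlike the protein genes, all 5 were far lower in HFD than in every other group. Rn18s probe 1 had log2 ratios of 1.35, 0.73, 0.74, and 1.21 in chow and -2.53, -2.11, -3.94, and -3.51 in HFD, a difference of -4.03 (SE 0.41, adjusted p = 3.04e-05), or 16.3-fold. The 1B mice had -0.94, 0.36, 0.30, and -0.39 and the HFD+1B mice 1.00, 0.46, 0.51, 1.10, and -0.77. The 4 HFD mice lay below all 13 others, and HFD+1B overlapped chow. For Rn28s1, with 43.3% GC, the values were 0.61, 0.46, 0.63, and 0.41 in chow and -1.38, -1.56, -2.20, and -1.78 in HFD (-2.26, SE 0.29, adjusted p = 0.000218). For Rn45s probe 1 they were 0.24, -0.40, 0.05, and 0.32 in chow and -3.25, -1.98, -4.52, and -3.94 in HFD, 11.1-fold lower. Rn18s probe 2 and Rn45s probe 2 were 15.5-fold and 12.8-fold lower in HFD.

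In HFD+1B against HFD the 5 probes were higher by 1.65 (Rn28s1) to 4.08 (Rn45s probe 2), all called. None was called in 1B or HFD+1B against chow, or in HFD+1B against 1B. Nevertheless every 1B mouse lay below every chow mouse with a value on the mature 18S and 28S probes. These 1B differences were -1.17 (Rn18s probe 1, adjusted p = 0.15), -1.22 (Rn18s probe 2, adjusted p = 0.12), and -0.88 (Rn28s1, adjusted p = 0.13). The Rn45s probes differed by -0.31 and -0.50 in 1B, with overlap. In HFD+1B against chow, Rn18s probe 1 differed by -0.55, Rn28s1 by -0.61, and Rn18s probe 2 fell by more than both. The Rn45s probes were at 0.37 and 0.40 there, and all 5 overlapped chow. All 5 interactions were called, from 2.53 to 4.65. HFD+1B 5 was the lowest mouse of its group on all 5 probes. Within the 3 slides that held both groups, the mean over the probes was -4.37 to -2.37 in HFD against chow, and within 4 slides it was 1.12 to 4.43 in HFD+1B against HFD. With loess, the ribosomal RNA probes were thus lowest in HFD and the ribosomal protein genes in HFD+1B. With median centring, the median of the protein genes was lowest in HFD too. How the cDNA was primed is not given in the sources used here. Priming bears on what the ribosomal RNA probes measure, so their ratios need not equal differences in the amount of ribosomal RNA. In HFD+1B, where 48 members had their lowest group mean with loess, the ribosomal RNA probes were at -0.26 to 0.46 by group mean, and in HFD at -3.76 to -1.73.

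**Figure D5:**
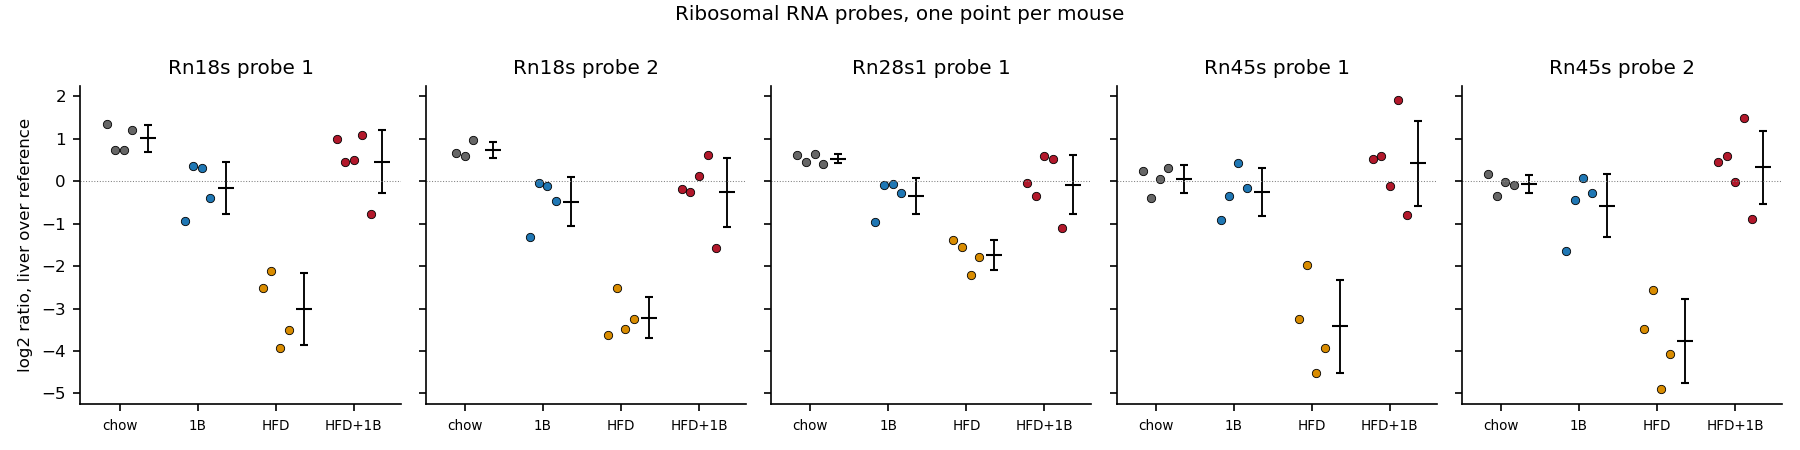
Log2 ratio of liver to reference (vertical axis) of the 5 ribosomal RNA probes in each mouse, by group, with the mean and SD. The HFD mice lie below all other mice on every probe, and HFD+1B mice lie near chow with a wider spread.

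The reference channel was read beside these results. The raw log2 Cy3 signal of Rn18s probe 2 was 12.4 to 13.5 on chow arrays and 10.7 to 11.1 on HFD arrays, although all arrays carry the same reference RNA, and that of Rn28s1 was 10.9 to 11.9 and 9.53 to 9.98. The Cy5 signal of Rn18s probe 2 was 12.7 to 13.1 on chow and 6.37 to 7.50 on HFD arrays. After quantile normalization of Cy3 alone, HFD differed from chow by -1.32 on Rn18s probe 2 (adjusted p = 0.504) and by 0.02 on Rn45s probe 1 (adjusted p = 0.971), so the reference moved with group on some of the probes, and its part in the ratios was not tested. Few genes were called in Cy3 alone, at most 0.062% of all genes in either direction of any of the 6 comparisons, so the absence of member calls there equals the background. The members' medians in Cy3 were -0.03 to 0.03.

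Genes that make or use ribosomes were counted from lists written for this purpose. The 4 cytosolic ribosomal proteins outside the symbol rule, such as Fau and Gnb2l1, were called in no comparison, and all 4 lay below 0 in HFD+1B against chow and against 1B. Of the 77 mitochondrial ribosomal proteins, 7 (9.09%) were called lower and none higher relative to chow in HFD+1B, near the 7.40% of all genes. Relative to HFD 14 (18.2%, against 8.39% of all genes) were called lower and 1 higher, with a median of -0.22. In HFD against chow 4 were called higher (5.19%, near the 4.50% of all genes) and 1 lower, with a median of 0.13, opposite in sign to the cytosolic genes. Both medians changed sign with median centring, to -0.06 for HFD against chow and 0.03 for HFD+1B against HFD. Mrps14 (-0.61, adjusted p = 0.001) and Mrps25 (-0.54, adjusted p = 0.0015) were the largest falls in HFD+1B against chow, and Mrpl16 rose in HFD (0.65, adjusted p = 0.025).

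Of 108 ribosome biogenesis factors, 8 (7.41%, against 2.09% of all genes) were called higher and none lower in 1B against chow, with a median of 0.15. In HFD+1B against chow 19 (17.6%, against 7.40%) were called lower and 4 higher. Relative to 1B, 29 (26.9%, against 5.15%) were called lower and 2 higher in HFD+1B, with a median of -0.25, so they were lower beside the cytosolic ribosomal proteins in this comparison. Gtpbp4, a nucleolar GTPase of large subunit assembly, fell in HFD (-0.82, adjusted p = 0.0038). Eif6, which keeps immature large subunits from joining, went the other way and rose in HFD+1B against chow (1.24, adjusted p = 1.3e-05). So did Rrp1b (0.93, adjusted p = 4.6e-05), a nucleolar protein of ribosomal RNA processing. Both were also called higher in 1B against chow. Among 33 genes of the list for RNA polymerases I and III, 5 (15.2%, against 7.40% of all genes) were called lower and none higher in HFD+1B against chow, the largest fall being Polr3g (-0.94, adjusted p = 3.6e-05), a subunit of RNA polymerase III. Gtf3a, which binds the 5S ribosomal RNA gene, fell by 0.70 (adjusted p = 0.023). In 1B against chow Polr3g was also called lower (-0.56).

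Of 19 elongation factors and other genes known for a starting pyrimidine run, 2 (10.5%, against 7.40% of all genes) were called lower and none higher in HFD+1B against chow, Eef1d (-0.49, adjusted p = 0.0044) and Naca (-0.28, adjusted p = 0.041). The call of Naca was lost under 14 of the 29 other settings. Of 43 initiation and mTOR pathway genes, 5 were called higher and 5 lower (11.6% each, against 8.90% and 7.40% of all genes). Eif1a, which acts in start codon scanning, rose (1.31, adjusted p = 1.8e-05), as did Mtor itself (0.80, adjusted p = 0.0023). Eif4ebp3, an inhibitor of cap-dependent initiation, fell (-1.21, adjusted p = 0.0097). In 1B against chow, Eif1a was also called higher, and so was Eif4ebp3 (1.28).

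Markers of other liver cells moved with group. The mean over 13 stellate cell markers, relative to chow, lay at 0.58 to 0.75 in the HFD mice, and at 0.35 to 1.20 in the HFD+1B mice, against -0.14 to 0.08 in chow. In HFD 6 (46.2%) and in HFD+1B 10 (76.9%) were called higher, against 4.50% and 8.90% of all genes. The mean over 12 macrophage markers lay at 0.47 to 0.55 in the HFD mice, and at 0.20 to 0.90 in the HFD+1B mice, against -0.28 to 0.38 in chow. Of these markers 4 (33.3%) and 3 (25%) were called higher, beside the same shares of all genes. The mean over 8 cholangiocyte markers lay at 0.17 to 0.72 in HFD+1B, above the -0.11 to 0.08 of chow and the -0.08 to 0.12 of HFD without overlap. Relative to chow, 1 (12.5%, near the 8.90% of all genes) was called higher and none lower in HFD+1B. The largest difference was that of Spp1 (1.84), and the median over the 8 was 0.13. The mean over 12 endothelial markers lay at 0.24 to 0.44 in HFD, above the -0.06 to 0.11 of chow without overlap, and at 0.04 to 0.37 in HFD+1B. In each, 2 (16.7%, against 4.50% and 8.90% of all genes) were called higher. The HFD+1B mean leaned on Lyve1, since the differences from chow ran from -1.05 (Kdr) to 3.19 (Lyve1), with a median of 0.07. In HFD+1B 3 endothelial markers (25%, against 7.40% of all genes) were called lower. The means of the neutrophil, lymphocyte, and erythroid markers overlapped chow in both groups. Single neutrophil markers went both ways in HFD+1B against chow, from -1.04 (Csf3r) to 1.46 (S100a8). Of 13, 3 (23.1%, against 8.90% of all genes) were called higher and 1 (7.69%, against 7.40%) lower, and in HFD 1 was called higher (7.69%, against 4.50%). No lymphocyte marker was called in either group, and 1 erythroid marker was called each way in HFD+1B. The mean over 12 hepatocyte markers was -0.52 to -0.28 in HFD, against -0.09 to 0.16 in chow, and -0.24 to 0.34 in HFD+1B. In HFD against chow, 7 hepatocyte markers lay below 0 and 5 above, and the lowest was Apob (-2.77). Of these 12, 1 (8.33%) was called higher and 3 (25%) lower in HFD, against 4.50% and 6.47% of all genes. In HFD+1B 2 were called each way (16.7%, against 8.90% higher and 7.40% lower). The part of the cell makeup in the ribosomal protein differences was not tested.

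Most of the family was called in no comparison, a share that was not counted for all genes and so not compared. Of the 81 members, 55 were in this class. They include Rps6, whose protein is phosphorylated after mTOR signaling, with a difference of -0.27 in HFD+1B against chow (adjusted p = 0.15), and Rpl5 and Rpl11, which bind MDM2 with 5S ribosomal RNA, at -0.07 (adjusted p = 0.619) and -0.16 (adjusted p = 0.338). Rps14 differed from chow by -0.01 (SE 0.08), Rps19, mutated in Diamond-Blackfan anemia, by 0.12 (SE 0.10), and Rps2 by -0.05 (SE 0.08). Rpl10, which joins the subunit late in its maturation, differed by -0.23 (adjusted p = 0.126), Rpl13a by -0.32 (adjusted p = 0.102), and Rps3 by -0.21 (adjusted p = 0.24). Rps27a, made as a fusion with ubiquitin, and Rpl26, Rpl22, and Rpl23 lay at -0.12, -0.18, -0.13, and -0.02. Rpl41, the shortest ribosomal protein, had a positive difference in both HFD groups, 0.23 and 0.18, and was not called (adjusted p = 0.171 and 0.247).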

How the data were processed

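The livers of 17 mice were hybridized to Agilent arrays in 2 colors, with liver cDNA in Cy5, a common reference RNA in Cy3, and no dye swap. The reference is labeled as assorted mouse RNA, and its labels also name liver. Per the file headers, the authors extracted spots with Feature Extraction 11.5.1.1. The deposited median foreground and background signals are raw intensity values of both channels, and the authors also deposited a table of log2 ratios of their dye-normalized signals, which was used as an alternative. All value columns of that table were matched to a mouse (0 unmatched).

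Signals were corrected with normexp at an offset of 50, spots marked as outliers were left out, and log ratios were normalized by loess within each array. Testing a probe required Cy5 well above background on 4 or more arrays and a value in each group, which kept 34664 of 41174 probes (139 of members), with 3424 missing values in all. Each gene was read by its probe brightest in Cy5, and 44 members had further probes. One limma fit of the 4 group means (13 residual degrees of freedom) gave all comparisons, with Benjamini-Hochberg adjustment over all probes tested. Comparisons that share a control group are not independent. Calculations used R 4.3.3, limma 3.58.1, and the package data.table (version 1.17.8), and the fit was checked on simulated data. There were 5 slides, and each carried arrays of several groups. Samples were grouped by their labels, and p-values measure the spread between the mice of a group. Array number limits the precision.

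The genes named are the 5 largest called rises and falls of members per comparison, a fixed set of core members and paralogs, all ribosomal RNA probes, and the 2 largest called changes per pathway list in HFD+1B against chow, in HFD against chow, and in the interaction. Other called members were named after their values were seen, and some genes that the rule names are not reported here. Members and lists were chosen with earlier results of these data known. The reading of Cy3 alone, the second probes, probe GC content, and the start-site runs were added after the data had been examined. Alternatives covered background correction, normalization, filters, probe choice, Cy5 alone, the authors' table, the methods' analysis of variance with Tukey test, the study's fold threshold, slide and replicate blocks, and leaving out each mouse. Sequences came from the arrays' probe annotation and from RefSeq start sites.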

Additional observations from a re-analysis of the deposited data

Results flagged for a closer look

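Among 155 sets of mice of 1 group, 7 had 1 mouse far from the others by Dixon's test at 95%, a share near the 1 in 20 that chance gives. Rps3 was at -0.19 in 1B 1, against -0.02 to -0.01 in the other 1B mice, and Rps27a was at -0.0049 there, against 0.19 to 0.22. Rps19 was at -0.52 in chow 1, against -0.18 to -0.14. Chow 2 was high for Rpl32, at 0.10 against -0.02 to -0.01, low for Rpl21, at -0.85 against -0.56 to -0.53, and high in the median over all members, at 0.0586 against -0.03 to -0.02. Rpl10 was at -0.35 in HFD+1B 1, against -0.04 to 0.03. No cause of these values was tested.

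The interaction term of limma was read here over the named genes and the ribosomal RNA probes only, as log2 differences. For 15 of these features the ethanol effect on HFD differed from that on chow at an adjusted p of 0.05 or less. Pathway genes were named partly for a large called interaction, so this count is not a rate. Over all genes tested, 2.66% were called higher and 1.72% lower in the interaction. Of the members these were Rpl3 (-0.59) and Rpl21 (1.04). Of the pathway genes named these were Mrps12 (-0.75) and Mrpl36 (-0.84) of the mitochondrial ribosome, Mphosph10 (1.31) and Utp20 (-1.22) of small subunit processing, Nap1l1 (-0.79), Eif3k (-0.56), and the initiation inhibitors Eif4ebp2 (0.92) and Eif4ebp3 (-2.15). Of the ribosomal RNA probes these were Rn18s probe 1 (4.65) and probe 2 (4.18), Rn28s1 (2.53), and Rn45s probe 1 (4.15) and probe 2 (4.58). The whole pathway lists held more called interactions than the genes named. Of the 108 biogenesis factors, 1 (0.926%) was called higher and 9 (8.33%) lower. Of the 43 initiation and mTOR pathway genes, 2 (4.65%) were called higher and 6 (14%) lower.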

How the results depend on the processing

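Precision was limited by 4 or 5 mice per group. The members' median stayed below 0 in HFD, HFD+1B against chow, and HFD+1B against 1B under every setting tried. With median centring the median was -0.10 in 1B (0.04 with loess), -0.42 in HFD, 0.18 for HFD+1B against HFD, and 0.28 for the interaction (-0.11 with loess), with all genes at 0.01, -0.08, 0.14, and 0.14. Members called lower were then 24 in HFD, 6 in HFD+1B against chow, 0 against HFD, and 1 against 1B. In the interaction 2 were called higher and 0 lower, with 0 higher in 1B. The shares of all genes, in the same order, were 8.98%, 4.21%, 2.32%, 2.1%, 5.71%, 0.408%, and 1.08%. With Cy5 alone, calls were 0 higher in 1B, 1 lower in HFD, and 1 lower in HFD+1B against chow. There were 1 higher and 1 lower against HFD, 1 lower against 1B, and 0 lower in the interaction. The shares of all genes, in the same order, were 0.393%, 2.97%, 2.99%, 3.83%, 2.07%, 1.24%, and 0.114%. With the authors' table, 2, 4, 1, and 6 members were called lower in HFD and in HFD+1B against chow, HFD, and 1B. Of all genes, 7.12%, 6.23%, 8.99%, and 3.82% were called lower there. With the methods' Tukey test, its p-values further adjusted by Benjamini-Hochberg over all probes, the counts were 0, 7, 1, and 8. In HFD+1B against HFD 1 was higher. Of all genes, 1.06%, 3.29%, 2.28%, and 1.5% were called lower there, and 3.26% higher against HFD. The study's methods name no Benjamini-Hochberg adjustment. Without it, 9, 20, 4, and 30 members were lower at a Tukey p of 0.05, with 2 higher against HFD. No share over all genes was counted for the unadjusted test. With a fold of 2 and an unadjusted p of 0.05 as the rule, 1 member was lower in HFD and 2 were higher in the interaction. The other counts that were not 0 became 0 except the 2 higher in HFD+1B against HFD. Under that rule 1.37% of all genes were lower in HFD, and 1.66% and 1.55% higher in the interaction and in HFD+1B against HFD. With the mean of a gene's probes, 2 were higher in 1B, against 2.25% of all genes. In HFD+1B against HFD 1 was higher and 2 lower, against 10.5% and 8.93%. With slide as a block, 1 was lower in 1B and 0 lower in the interaction, against 2.31% and 2.74% of all genes.

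The labels do not say that replicate numbers pair the mice, and the main fit used neither these numbers nor the slides. Of 24 same-numbered pairs, 16 correlated above 0.1 (r of -0.13 to 0.48), the highest being HFD 1 with HFD+1B 1 on the same slide. As a hint of pairing from the data, 9 of 16 mice correlated best with a mouse of their own number in another group. However, 14 of the 24 pairs shared a slide, so pairing and slide cannot be told apart in those pairs. With the replicate block, 30 members were called lower in HFD+1B against 1B and 17 against chow, against 6.58% and 8.82% of all genes. In the interaction 2 were called higher and 3 lower, against 5.1% and 3.88%.

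Leaving out each mouse in turn, members called lower ranged from 1 to 4 in HFD, 8 to 15 in HFD+1B against chow, 0 to 4 against HFD, 10 to 21 against 1B, 0 to 1 in 1B, and 0 to 2 in the interaction, where 0 to 2 were called higher. Of single genes, Mrps12 turned to -0.17 in HFD and 0.19 in HFD+1B against HFD, and Rplp0 to 0.0725 in HFD+1B against chow, all with Cy5 alone. Of 11245 values of single genes under other settings, 10573 kept their side of the threshold, 558 lost the call, and 111 gained a call. In 3, a value with a call reversed in sign. Values called neither in the main fit nor in the other setting were counted as kept even where their sign changed. The causes were not tested.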
